A study of Rattus norvegicus with 6 samples.

Results

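Stathmins and structural microtubule proteins of neurons were followed as a set of 10 genes in the polyA-selected RNA of cortical neural progenitors of the rat. The genes were given by name, were looked up in the gene tables of the 4 RNA-seq libraries and are all listed there, 10 of 17337 gene names. They are the stathmins *Stmn1*, *Stmn2*, *Stmn3* and *Stmn4*, the microtubule-associated proteins *Map1b*, *Map2* and *Mapt*, the doublecortin genes *Dcx* and *Dclk1*, and *Dpysl3*, a collapsin response mediator protein gene. The cells came from cortices of Sprague Dawley embryos at embryonic day 14 and were grown untreated with bFGF and EGF until they were collected after passage 2. There were 2 biological replicates, A and B, each sequenced as 2 technical libraries (A1 and A2, B1 and B2), and no other condition, so the mean and SD given here are over the 2 replicates with technical libraries averaged first. The labels do not say how many embryos gave each culture.

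Microtubules are polymers of tubulin that grow and shrink at their ends. Stathmins bind free tubulin dimers and favour disassembly, and phosphorylation turns them off, whereas microtubule-associated proteins and doublecortins bind along the polymer and stabilise it. In the developing cortex *Stmn1* is known from dividing progenitors as well as young neurons, while most of the other genes are used as signs of neuronal differentiation.

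Levels of mRNA are in FPKM, fragments scaled for both transcript length and sequencing depth, so that genes of different length can be compared, and the values of a replicate are given in the order A1, A2 or B1, B2. Library B2 was sequenced less deeply, with a coverage of 6.83 for each FPKM against 22.7 to 24.4 in the others, and each of the 10 genes still had a mean coverage of at least 37.3 in B2. The markers of neural progenitors were present, with 11 of 11 on the list averaging 10 FPKM or more. The sum of 8 mesenchymal and meningeal markers was 629 to 642 FPKM in A and 2458 to 3249 FPKM in B.

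*Stmn1* dominated the set. Also called Op18, it encodes the cytosolic stathmin and occupies 152681145 to 152686806 on chromosome 5 of rn6, plus strand. It had 566 and 645 FPKM in A and 514 and 622 FPKM in B, a mean of 587 ± 26.4 FPKM (SD, n = 2). The values of A and B overlapped. By the mean it ranked 144 among the gene names and was 17.8 times as high as the next gene of the set, more than the spread between libraries. The other 9 genes had means from 5.51 to 33.0 FPKM and together reached 181 FPKM.

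The neuronal stathmins were present at similar, much lower levels. They differ from *Stmn1* in an added N-terminal part that attaches them to membranes. *Stmn3* (SCLIP, minus strand of chromosome 3, 176808016 to 176816108) had 31.0 and 37.2 FPKM in A and 34.1 and 23.2 FPKM in B, with a mean of 31.4 ± 3.87 FPKM (SD, n = 2). *Stmn2* (SCG10, a growth cone protein, minus strand of chromosome 2, 95424251 to 95471900) had 18.9, 21.8, 19.4 and 25.4 FPKM in A1, A2, B1 and B2, a mean of 21.4 ± 1.46. *Stmn4* (RB3, plus strand of chromosome 15, 43007908 to 43025852) had 19.2, 21.3, 15.5 and 22.4 FPKM, a mean of 19.6 ± 0.952. In each of these genes the libraries of A and B overlapped.

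As a share of the stathmin sum within a library, *Stmn1* made up 89.1% and 88.9% in A and 88.2% and 89.8% in B. The share was 89.0% ± 0.0376 (SD, n = 2), and the technical libraries of B lay further apart than the replicates. *Stmn3* followed with 4.80% ± 0.291, *Stmn2* with 3.24% ± 0.359 and *Stmn4* with 2.96% ± 0.0299. *Stmn2* was the only stathmin whose share was separate between the replicates, with means of 2.99% in A and 3.50% in B. *Stmn3* was above *Stmn2* in A1, A2 and B1, and below it in B2.

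The microtubule-associated proteins covered a wider range. *Map1b*, which encodes an early protein of growing axons, occupies 29675391 to 29768750 on chromosome 2, minus strand. Its level was 28.4 and 33.4 FPKM in A and 20.5 and 39.4 FPKM in B, a mean of 30.4 ± 0.668 FPKM (SD, n = 2). The small SD hides that B2 was 1.92 times B1, so that replicate B spanned the values of A on both sides. *Map1b* exceeded *Map2* and *Mapt* in every library.

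*Map2*, a protein of dendrites that has short forms in the embryo, occupies 73378060 to 73459375 on chromosome 9, plus strand. It had 6.37 and 7.03 FPKM in A and 3.28 and 5.46 FPKM in B, a mean of 5.53 ± 1.65 (SD, n = 2). *Mapt*, which encodes the axonal protein tau, occupies 92289002 to 92386515 on chromosome 10, plus strand. It had 4.44 and 4.77 FPKM in A and 5.48 and 7.35 FPKM in B, a mean of 5.51 ± 1.28. The means are nearly equal, although *Map2* was lower in both libraries of B than in those of A and *Mapt* was higher.

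The doublecortin genes were not at the same level. *Dcx*, an X-linked gene whose product is found in migrating neurons, lies on the minus strand from 115098675 to 115175299. It had 10.6 and 12.7 FPKM in A and 7.81 and 7.64 FPKM in B, a mean of 9.70 ± 2.79 FPKM (SD, n = 2), with both libraries of B below those of A. *Dclk1* encodes a protein kinase that in its full form carries doublecortin domains and occupies 144861445 to 144939388 on chromosome 2, plus strand. It had 31.5 and 33.6 FPKM in A and 29.8 and 37.1 FPKM in B, a mean of 33.0 ± 0.678, and the replicates overlapped. *Dclk1* was 2.64 to 4.86 times as high as *Dcx* in the same library by FPKM, and 1.17 to 2.16 times as high by the deposited coverage, the mean read depth per base.

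*Dpysl3*, also known as CRMP4, encodes a phosphoprotein of growth cones that binds tubulin and actin. It occupies 37716559 to 37776453 on chromosome 18, minus strand. It had 18.4 and 18.7 FPKM in A and 23.3 and 36.9 FPKM in B, a mean of 24.3 ± 8.15 FPKM (SD, n = 2). Both libraries of B were above those of A, and B2 was 1.58 times B1. This SD was 33.5% of the mean, the widest of the 10 genes.

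**Figure D1:**
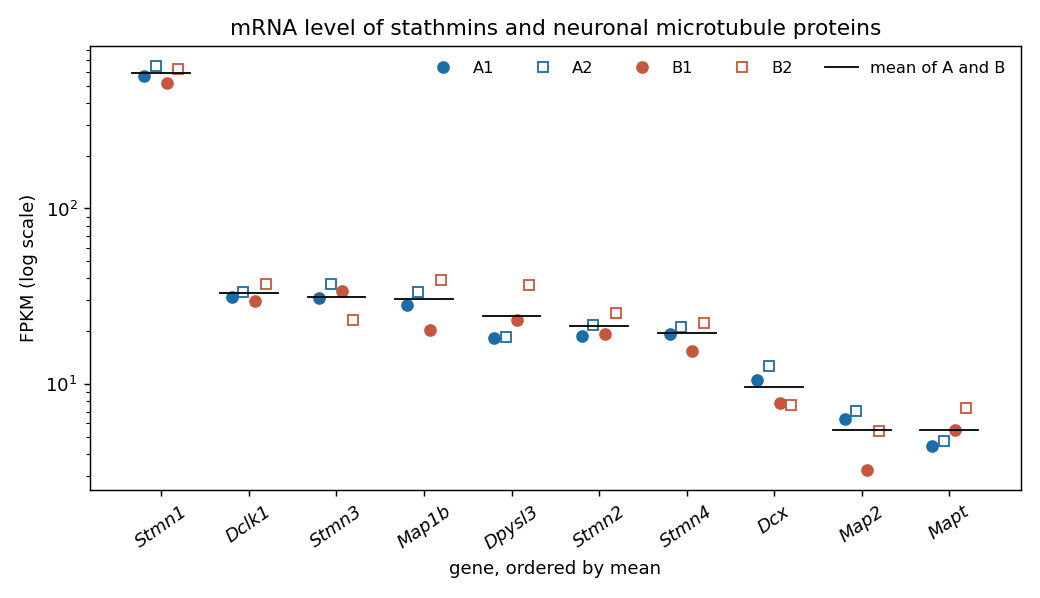
FPKM on a log axis of the 10 genes in libraries A1, A2, B1 and B2, ordered by the mean of replicates A and B (black bars). *Stmn1* sits at 514 to 645 FPKM, and the other genes lie between 3.28 and 39.4 FPKM.

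In the order of the means, *Stmn1* was followed by *Dclk1*, *Stmn3*, *Map1b*, *Dpysl3*, *Stmn2*, *Stmn4*, *Dcx*, *Map2* and *Mapt*. Of the 9 neighbouring pairs in this order, 3 were separate over all libraries, namely *Stmn1* over *Dclk1*, *Stmn4* over *Dcx*, and *Dcx* over *Map2*. The genes from *Dclk1* to *Stmn4* could not be ordered beyond their spread from one neighbour to the next, and neither could *Map2* and *Mapt*. Of the 45 pairs that the 10 genes form, 35 had the same order within every library. The median of the 10 means was 22.8 FPKM, against 16.6 FPKM for all 10481 gene names that averaged 1 FPKM or more, and 7 of the 10 genes averaged 10 FPKM or more, as did 38.3% of all 17337 names.

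The levels depend on the gene models. The spans in the tables were compared with those of RefSeq on the later build GRCr8, and for 5 genes (*Stmn2*, *Stmn3*, *Stmn4*, *Map1b* and *Mapt*) they were equal within 2%. The span used for *Dclk1* covered 26.5% of the later one, that of *Map2* 31.4%, that of *Dcx* 53.6%, that of *Dpysl3* 56.6% and that of *Stmn1* 86.6%. Any exons outside the span used did not enter the FPKM given here. *Dclk1* also stood apart in the ratio of coverage to FPKM, which was 10.8 in A1 against a median of 24.3 over all genes. By coverage it held place 7 of the 10 genes in every library, in place of place 2 by mean FPKM, so its level relative to the other genes depends on the unit. The ratio was within 1% of the library's median for 8 of the 10 genes and 22.5 in A1 for *Stmn4*. The cause was not tested. No other gene in the tables overlaps the span of any of the 10 genes.

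The promoters were compared in letters as well. RefSeq windows of 300 bases on GRCr8, from 250 bases before an annotated start to 50 after it, were held for 7 of the genes (8 windows) and not for *Stmn2*, *Stmn4* and *Mapt*. Those of *Stmn1*, the highest gene, of *Map1b*, and of *Dcx*, a gene higher in A than in B, are shown. For these genes the distance from the start to the gene's end on GRCr8 was within 1% of the rn6 span, and the windows differ in composition. The windows are chr5:151964929-151965228 on the plus strand for *Stmn1*, chr2:32644422-32644721 on the minus strand for *Map1b* and chrX:112304112-112304411 on the minus strand for *Dcx*. Capitals mark matches on either strand to the GC box GGGCGG, the CCAAT box, the E-box CACGTG and the TATA box TATAAA.
Stmn1: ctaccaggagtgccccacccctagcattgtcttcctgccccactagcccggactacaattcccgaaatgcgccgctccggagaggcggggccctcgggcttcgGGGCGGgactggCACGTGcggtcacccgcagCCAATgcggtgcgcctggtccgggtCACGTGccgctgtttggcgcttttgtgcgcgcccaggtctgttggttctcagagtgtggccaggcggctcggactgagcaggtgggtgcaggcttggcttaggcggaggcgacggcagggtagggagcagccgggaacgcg
Map1b: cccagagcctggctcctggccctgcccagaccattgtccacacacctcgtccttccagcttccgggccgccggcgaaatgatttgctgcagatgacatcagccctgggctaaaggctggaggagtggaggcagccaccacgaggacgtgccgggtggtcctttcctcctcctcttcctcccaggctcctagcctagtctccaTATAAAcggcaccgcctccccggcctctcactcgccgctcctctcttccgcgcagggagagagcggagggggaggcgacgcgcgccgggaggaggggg
Dcx: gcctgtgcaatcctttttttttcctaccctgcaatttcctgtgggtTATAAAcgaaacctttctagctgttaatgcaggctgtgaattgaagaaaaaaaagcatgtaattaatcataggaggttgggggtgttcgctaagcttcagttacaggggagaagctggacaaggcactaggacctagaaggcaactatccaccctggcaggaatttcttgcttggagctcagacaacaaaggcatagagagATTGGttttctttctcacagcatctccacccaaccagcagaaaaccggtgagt

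The *Stmn1* window held 28 CpG dinucleotides and 68.3% G and C, with 1 GC box, 1 CCAAT box and 2 E-boxes. E-box letters occur in 6.42% of all 33469 windows of the table and in no other window of the set. *Map1b* had 21 CpG, 66.7% G and C and a TATA box that begins 48 bases before the start. *Dcx* had 3 CpG and 45.0% G and C, with a TATA box 204 bases before the start and, on the other strand, a CCAAT box that reads as ATTGG 3 bases before it. The TATA box is found in 14.2% of all windows, the CCAAT box in 37.5% and the GC box in 33.1%. The window of *Map2* had 33.3% G and C and 1 CpG, but it lies 174 kb inside the outermost start of the gene on GRCr8. Other windows also lay inside the outermost start, that of *Dclk1* by 216 kb, that of *Dcx* by 66.1 kb, 1 of the windows of *Dpysl3* by 42.6 kb and that of *Stmn1* by 0.871 kb, so the *Stmn1* and *Dcx* letters shown are those of inner starts. In the table as a whole the median was 51.7% G and C with 7 CpG. Matches are letters in a window, and binding was not measured.

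**Figure D2:**
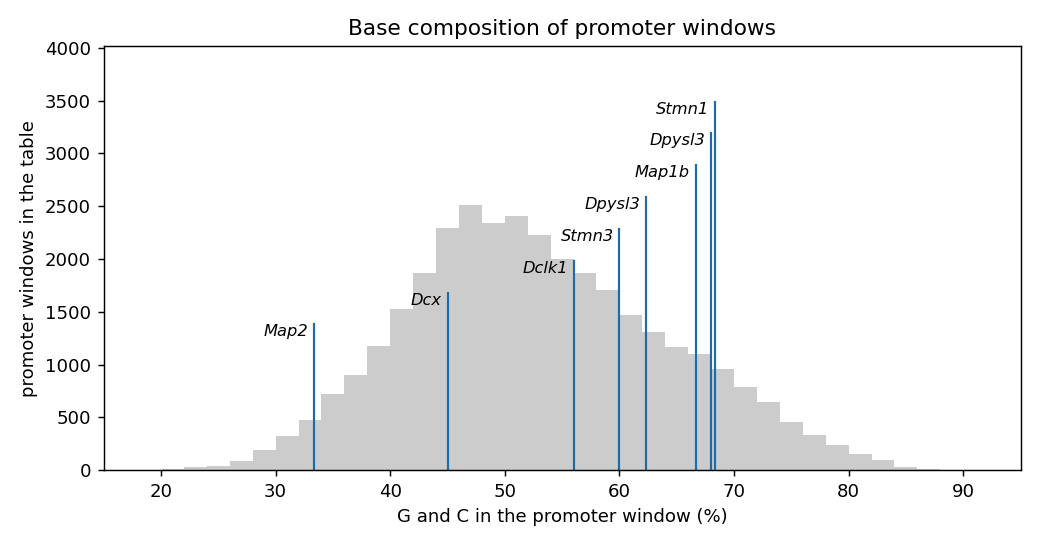
Share of G and C in 300-base RefSeq promoter windows on GRCr8, with all 33469 windows as grey bars of 2 percentage points and the 8 windows of the set as blue lines, whose height has no meaning. *Map2* at 33.3% and *Dcx* at 45.0% lie below the median of 51.7%, and the other windows of the set lie above it.

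Differences between the cultures were taken as B minus A on the log2(FPKM + 1) scale, which understates differences of low genes. Each replicate is a single culture, so no p-value was computed. None of the 10 genes had a difference of at least 1 with the libraries of A and B apart, a criterion met by 6.15% of the 10481 gene names that averaged 1 FPKM or more. The median absolute difference was 0.19 for the 10 genes and 0.24 for all of these names.

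*Dcx* was 0.53 lower in B and *Map2* 0.55 lower, which left their libraries separate between A and B, as in 32.0% of the 10481 names. In the other direction, *Dpysl3* was 0.63 higher in B and *Mapt* 0.39 higher, also with separate libraries, as in 28.1% of the names. At a threshold of 0.58 in place of 1, *Dpysl3* was the only gene counted, against 16.5% of the names. Which genes lie past 0.58 depends on the libraries of B, on the unit and on the pseudocount. With B1 alone for replicate B, the difference was 0.31 for *Dpysl3*, 0.21 for *Mapt* and -0.85 for *Map2*. With B2 alone it was 0.95 for *Dpysl3*, 0.577 for *Mapt*, just short of the threshold, and -0.25 for *Map2*. That of *Dcx* was -0.52 with B1 alone and -0.55 with B2 alone. In TPM, *Map2* at -0.63 and *Dcx* at -0.60 were also past 0.58, and with a pseudocount of 0.1 so were *Map2* at -0.649 and *Dcx* at -0.584. The remaining 6 genes overlapped, with differences from -0.26 for *Stmn3* to 0.13 for *Stmn2*. *Dcx* and *Mapt* were the only genes of the set whose difference between cultures exceeded that between the technical libraries of either culture. For *Dcx* these were 0.24 in A and -0.03 in B, and for *Mapt* 0.09 and 0.37, so *Mapt* at 0.39 passed narrowly. The share of all names that met this criterion was not computed, so the count of 2 has no background.

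**Figure D3:**
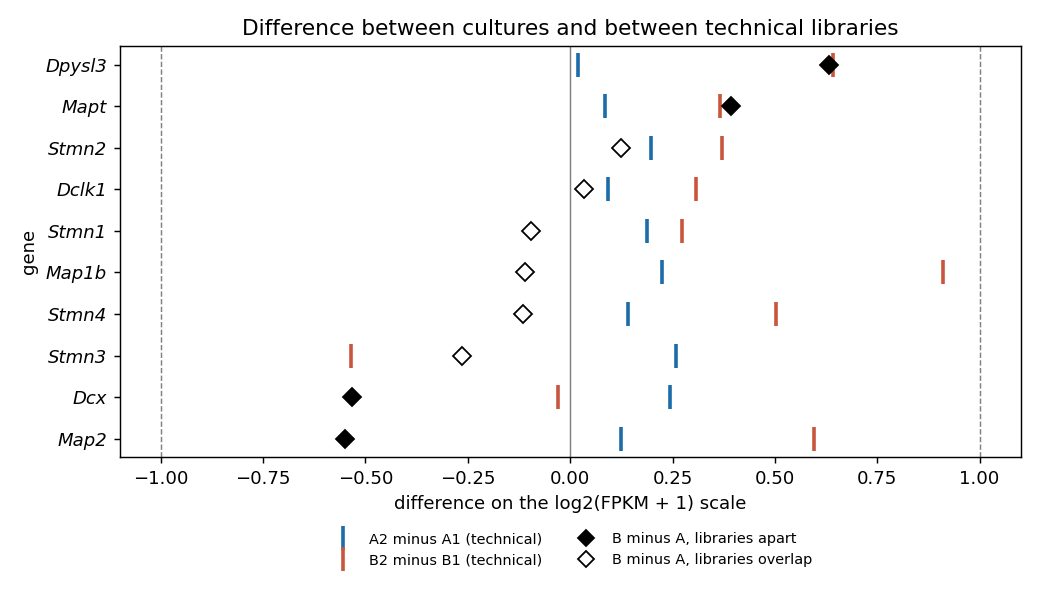
Difference on the log2(FPKM + 1) scale of replicate B minus A (diamonds, filled where the libraries do not overlap) and of the technical libraries A2 minus A1 and B2 minus B1 (bars) for the 10 genes. No gene reached a difference of 1 (dashed lines), and *Map1b* has the widest technical difference, 0.91 between B2 and B1.

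Ratios within a library do not depend on how libraries are scaled. The ratio of *Map2* to *Mapt* was 1.43 in A1 and 1.47 in A2, and 0.598 in B1 and 0.743 in B2, so the order of these genes was opposite in the cultures. *Dcx* was 2.39 and 2.67 times as high as *Mapt* in A and 1.43 and 1.04 times in B. The ratio of *Dpysl3* to *Map2* was 2.90 and 2.66 in A and 7.11 and 6.76 in B, the largest difference of any pair in the set on the log2 scale (1.32). Between *Dcx* and *Map2*, both lower in B, the ratio was 1.67 and 1.81 in A and 2.39 and 1.40 in B, with overlap. The order turned between the cultures for 3 of the 45 pairs, *Map2* with *Mapt*, and *Dpysl3* with *Stmn2* and with *Stmn4*, and for 7 pairs when replicate B was taken from B2 alone. By coverage it turned for 2 pairs, without that of *Dpysl3* and *Stmn4*. *Stmn1* was 16.7 to 19.2 times as high as *Dclk1* by FPKM, and 37.7 to 43.3 times by coverage.

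**Figure D4:**
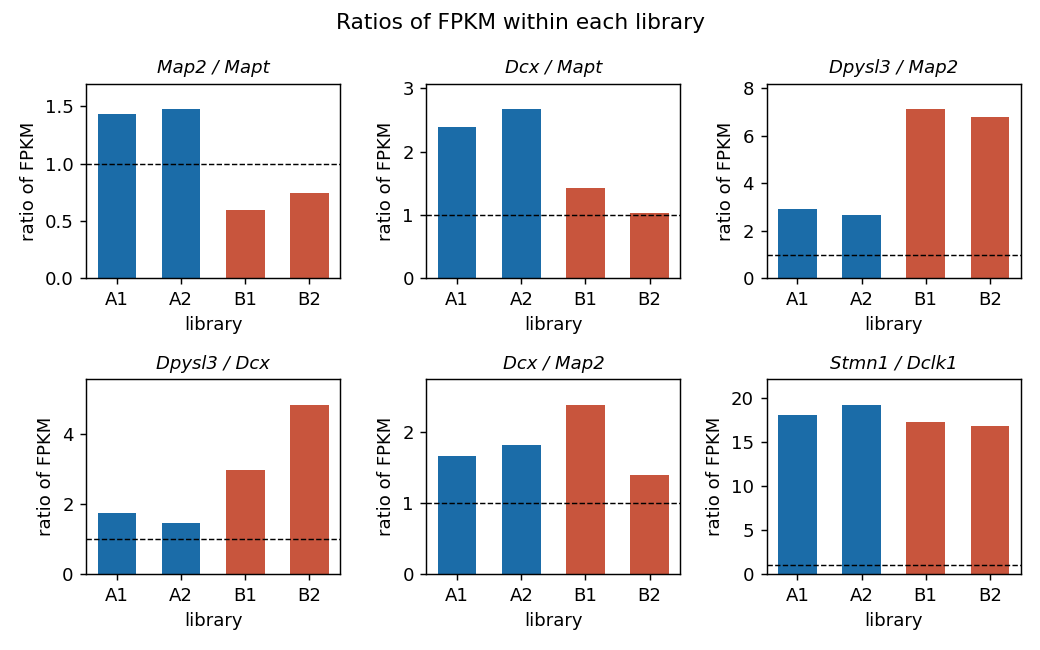
Ratio of FPKM between 2 genes within libraries A1, A2 (blue), B1 and B2 (red), with a dashed line at 1. *Map2* over *Mapt* crosses 1 between the cultures, *Dpysl3* over *Map2* is 2.66 to 2.90 in A and 6.76 to 7.11 in B, and *Stmn1* over *Dclk1* is 16.7 to 19.2 on this scale.

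Other genes moved with the cultures. All 8 mesenchymal and meningeal markers were counted as higher in B at a difference of at least 1, as were 4.58% of the 10481 names. *Col1a1* had 169, 157, 685 and 785 FPKM in A1, A2, B1 and B2. The libraries of B lay far apart for *Ptgds*, with 3.86, 5.22, 8.18 and 292 FPKM, and for *Foxc1*, with 14.2, 14.1, 29.4 and 115 FPKM. Of the 8 markers, 7 were higher in B2 than in B1. Whether B1 and B2 differ in more than sequencing was not tested. Among 12 proliferation markers 10 were higher in both libraries of B than in both of A, against 28.1% of the 10481 names, with a median difference of 0.55, and none reached 1. In the opposite direction, the 11 progenitor markers summed to 21369 and 23447 FPKM in A and to 10433 and 11147 FPKM in B, and *Fabp7*, a fatty acid binding protein of radial glia, took the largest share of that sum. The part of these differences in the values of *Dpysl3*, *Mapt*, *Dcx* and *Map2* was not tested. In bulk RNA fewer cells of a type and less RNA in each cell cannot be told apart.

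Of 20 neuron markers, 14 averaged 1 FPKM or more and 6 averaged 10 or more. Among these 14, 7 were separate and higher in A (32.0% of the 10481 names) and 2 were separate and higher in B (28.1% of the names), with a median difference of -0.24. *Tubb3*, the neuronal beta-tubulin, had 117, 134, 105 and 118 FPKM in A1, A2, B1 and B2. *Gap43*, a growth cone protein, had 61.3, 66.0, 53.0 and 85.6 FPKM. *Elavl4*, an RNA-binding protein of neurons, was counted as higher in A at a difference of at least 1, as were 1.57% of all names, with 36.1, 40.6, 18.1 and 17.5 FPKM. *Elavl3*, of the same family, was higher in B, with 11.0, 11.1, 16.8 and 16.1 FPKM. Markers of mature neurons were low, with a mean of 6.92 FPKM for *Snap25*, a synaptic SNARE protein, and with 3.62 and 3.34 FPKM in A and 3.09 and 1.95 FPKM in B for *Rbfox3*, the NeuN antigen.

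The other collapsin response mediator proteins place *Dpysl3* in its family. *Dpysl2* (CRMP2) was highest with 87.3 ± 5.87 FPKM (SD, n = 2), followed by *Dpysl4* with 60.3 ± 9.06, *Crmp1* with 45.7 ± 3.80, *Dpysl3*, and *Dpysl5* with 3.73 ± 0.381. *Dpysl3* made up 8.82% and 8.48% of the family's FPKM in A, and 10.5% and 15.8% in B. *Dpysl4* had the opposite order, with 31.8% and 30.4% in A and 29.3% and 18.3% in B. In B2, where both genes stood furthest from A, the family's sum was 234 FPKM, against 209 to 221 FPKM in the other libraries.

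Of 25 other microtubule-associated protein genes on a fixed list, 23 were in the tables and 22 averaged 1 FPKM or more, with a median of 22.3 FPKM over the 23. *Dclk2*, the close relative of *Dclk1*, was the highest with 271, 251, 223 and 164 FPKM in A1, A2, B1 and B2, all above the highest value of *Dclk1* (37.1 FPKM). *Mapre1*, the plus-end protein EB1, had 192 ± 2.62 FPKM (SD, n = 2). *Clasp2*, another plus-end protein, was the only gene of the list counted as differing by at least 1, with 146, 130, 85.8 and 47.5 FPKM, and 1 of 22 is near the 6.15% of all names that were so counted. Of the 22 genes, 11 were separate and higher in A, against 32.0% of the 10481 names, and 3 separate and higher in B, against 28.1%.

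Of the genes for tubulin, which stathmins bind, 4 used by neurons had a median of 313 FPKM. *Tuba1a* had 1164 ± 136 FPKM (SD, n = 2), *Tubb2b* 464 ± 68.9 and *Tubb2a* 162 ± 25.8. *Tubb2a* and *Tubb2b* were separate and higher in A, as were 32.0% of the 10481 names, and *Tuba1a* and *Tubb3* overlapped.

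The genes most like *Dcx* and *Stmn1* in their pattern over the 4 libraries were found from log2(FPKM + 1) after subtraction of each gene's mean, among 6629 genes that averaged 10 FPKM or more. For *Dcx* these were *Ccpg1os*, *Cby1*, *Mtmr10*, *Sirt3* and *Arl13b*, with root mean square differences of 0.02 to 0.05, and 154 genes (2.32%) lay within 0.1. For *Stmn1* they were *Ifi27*, *Cdk2ap2*, *Pmvk*, *Magoh* and *Nudt2*, with differences of 0.01 to 0.02, and 577 genes (8.70%) lay within 0.1. With 4 libraries of 2 cultures many genes share a pattern. Within the set, *Stmn3* and *Map2* were nearest to *Dcx* at 0.22, and *Dclk1* was nearest to *Stmn1* at 0.07.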

How the data were processed

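PolyA-selected RNA of 2 cultures was sequenced as 4 libraries. Files of the 2 Start-seq samples were not used here. The authors deposited a gene table for each library on rn6 with FPKM, TPM (with the same sum in each library) and coverage (mean read depth per base, a signal not scaled for depth). The submitters' processing notes name cutadapt, HISAT, STAR and StringTie without roles, and versions are not given in the sources used here. Per the methods, the authors used Rsubread and DESeq2 for FPKM, while the layout is that of StringTie. No read counts were used, so counting intervals are not given.

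Rows of a gene name were summed, technical libraries were averaged within a culture, and differences were taken as log2(FPKM + 1) of B minus A. A gene was counted as differing when its mean was at least 1 FPKM, its difference at least 1 and its libraries of A and B did not overlap. No test was possible with 1 condition. On simulated data this rule found 200 of 200 genes raised 4-fold among 17337 and no other. A 4-fold rise lies well past the threshold, so this checks the calculation and gives no error rate for these libraries. The 10 genes, the lists and the rules were chosen with earlier results of these data known. Genes named from each list were the 3 highest, the 1 with the largest difference, and 5 set neuron markers, with all collapsin response mediator protein genes. *Clasp2* was named as the largest difference of its list. Alternatives were TPM, coverage, size factors, a pseudocount of 0.1, other thresholds and left-out libraries or replicates. Promoter windows are RefSeq, GRCr8. The work was done in Python 3.11.15 with numpy 2.4.6, pandas 2.3.3 and scipy 1.17.1, and drawn with matplotlib 3.10.9.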

Additional observations from a re-analysis of the deposited data

Results flagged for a closer look

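The coverage for each FPKM, a measure of depth, was 24.3 and 22.7 in the libraries of A, and 24.4 (B1) and 6.83 (B2) in those of B. B2 lay further from the other libraries than Dixon's limit for 4 values allows, and was at 28.1% of B1. Of 16 values examined in this way this was the only such value, and chance gives about 1 in 20. The levels of the 10 genes in B2 did not pass the limit.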

How the results depend on the processing

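In all, 230 alternative values were computed for 38 results. Of these, 193 stayed within the limit set, a spread or 1.5 times the count. None of the 50 difference values was counted as moved, although that of *Map1b* was -0.57 with B1 alone and 0.35 with B2 alone. Levels without 1 replicate could not move either, so the 193 do not measure stability. In TPM the median of the 10 genes was 38.3. At a log2 difference of 0.58 the count was 1 of the 10 genes (*Dpysl3*) and 1732 of all names, and with a mean of at least 10 FPKM 329 names were counted, against 645. The share of *Stmn1* was 89.2% from coverage, 88.6% with B1 alone for replicate B and 89.4% with B2 alone. With B2 alone 7 pairs turned between the cultures in place of 3, and by coverage 2. By coverage the mean ratio of *Dclk1* to *Dcx* was 1.58 in place of 3.57, and that of *Stmn1* to *Dclk1* 40.2 in place of 17.8. The values from B2 alone, these ratios and all alternatives for the order of pairs were chosen after seeing the data.

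Leaving out a replicate gave a median level of 20.3 to 25.5 FPKM, 7 to 8 genes of at least 10 FPKM and a share of *Stmn1* of 89.0%. With 2 replicates this cannot move a mean beyond its SD. With B1 or B2 alone, the levels of *Stmn1*, *Stmn2*, *Stmn4*, *Map1b* and *Dclk1* moved beyond their SD. Over all alternatives 7 of 50 differences changed sign, none of them for *Dcx*, *Map2*, *Mapt* or *Dpysl3*, whose libraries stayed separate. No paired analysis was possible because the labels give 1 group, with no second condition to pair.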

Other observations

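Kinases and phosphatases that act on stathmins and microtubule-associated proteins were widely present, as all 16 listed averaged 1 FPKM or more and 10 of them 10 or more. The catalytic subunits of protein phosphatase 2A were the highest, *Ppp2ca* with 158 ± 11.2 FPKM (SD, n = 2) and *Ppp2cb* with 126 ± 3.38. *Cdk5*, a kinase of tau and doublecortin, had 111, 86.5, 111 and 69.6 FPKM in A1, A2, B1 and B2. *Camk2a*, the alpha subunit of a calcium-dependent kinase, was the only gene of the list counted as differing, with 6.44 and 5.35 FPKM in A and 0.918 and 1.91 FPKM in B, and 1 of 16 is near the 6.15% of all names so counted.

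Of 13 genes for severing microtubules or modifying tubulin, 10 were in the tables and 9 averaged 1 FPKM or more. *Atat1*, the alpha-tubulin acetyltransferase, was highest with 60.2 ± 8.26 FPKM (SD, n = 2), and *Spast*, which encodes spastin, had 28.1 ± 3.40. *Vash2*, a tubulin carboxypeptidase, had 7.18 and 7.97 FPKM in A and 13.1 and 14.2 FPKM in B, separate but below the threshold of 1 on the log2 scale (0.77).

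Markers of other cells were also read. *Pdgfra*, the oligodendrocyte precursor receptor, had 9.50 and 9.09 FPKM in A and 59.5 and 59.4 FPKM in B, and it is also expressed in mesenchymal cells. The 6 astrocyte markers summed to 1641 and 1710 FPKM in A and to 1353 and 1479 FPKM in B, but the genes differed in direction and their median log2 difference was 0.01. *Gfap*, an intermediate filament protein, had 502 and 460 FPKM in A and 419 and 904 FPKM in B, *Aldoc*, a glycolytic enzyme, had 644 and 715 FPKM in A and 568 and 297 FPKM in B, and *Aqp4*, a water channel chosen after its values were seen, was separate and higher in B. *S100b*, a calcium-binding protein, was counted as higher in A, with 365 and 403 FPKM in A and 203 and 149 FPKM in B. The 7 microglia and blood markers summed to 4.40 to 6.73 FPKM, 1 of them averaging 1 FPKM or more, and the 6 endothelial markers to 0.876 to 4.46 FPKM, with none. All 8 widely used reference genes averaged 10 FPKM or more and 0 were counted as differing, against 6.15% of all names.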
